A study of Mus musculus with 12 samples.

Results

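Alas1, Hmox1 and Por encode enzymes that make haem, break it down and supply electrons to haem enzymes, and their m6A peaks were followed in the livers of cadmium-exposed and control mice. Every peak annotated to any of these 3 genes was taken, which gave 21 of the 37118 peaks listed: 5 in Alas1, 1 in Hmox1 and 15 in Por. All 21 passed the filter on low counts, lay inside the RefSeq gene and carried no other gene symbol. The genes were selected on their measured cadmium to control log2 changes. Their levels and log2 changes are therefore given as a description, with no p-value.

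All samples came from livers of male wild-type C57BL/6 mice whose age the labels give as 6 to 8 weeks. Control mice received 0 mg/kg/day and exposed mice 20 mg/kg/day CdCl2 by gavage for 90 days. Liver and kidney are the organs in which cadmium, a poisonous metal, is mainly stored. An antibody to m6A (N6-methyladenosine, a methylated RNA base) was used to pull down RNA fragments, and the fragments in each peak were counted in 3 control and 3 cadmium samples. The labels give 6 animals per group and do not say outright that each replicate is a separate mouse, so the spread between samples may be partly technical. Input counts were not used here, so the amount of a gene's RNA and its methylated share cannot be told apart in any value below. In whole liver, fewer cells of a type and less RNA per cell cannot be told apart either.

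Haem is built from glycine and succinyl-CoA, and ALAS1 catalyses the opening, rate-limiting step of this pathway in hepatocytes. Much of the haem made in liver goes into microsomal cytochrome P450 enzymes, which draw their electrons from NADPH through POR. HMOX1 opens the haem ring to biliverdin, iron and carbon monoxide, and also takes its electrons from POR. Alas1 is known to be repressed by haem and to follow the circadian clock, and Hmox1 is known to be induced by NRF2 and to be abundant in macrophages that take up red cells.

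Counts in peaks totalled 40174736 to 52338612 per sample. Levels are normalised counts in CPM, scaled by TMM to a common library size, and means carry ± SD over n = 3 samples. The 12 hepatocyte markers all had peaks and none was called, with a median log2 change of 0.0023 and summed levels of 24420 to 25800 CPM in control and 21970 to 25010 CPM in cadmium samples. Apob alone averaged 10870 CPM in control and 9812 CPM in cadmium samples, so it weighs heavily in these sums. An unadjusted p below 0.05 (edgeR quasi-likelihood test) was found for 2 of the 12. Of all 37088 peaks tested, 6.27% passed an adjusted p of 0.05, 3.55% higher and 2.72% lower in cadmium samples.

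The regions that hold the start sites are shown first, because peaks of Alas1 and Por lay at or just after them. RefSeq promoter entries matched Alas1 and Por, 2 of the 3 genes. The sequences are from RefSeq on GRCm38.p6 (the build the labels call mm10), 5′ to 3′ on the gene's strand, and capitals mark a match to the GC box GGGCGG on either strand. The Alas1 stretch, chr9:106247955-106248204 on the minus strand, ends just before the upstream of the gene's 2 listed starts. The Por stretch, chr5:135688895-135689144 on the plus strand, ends just before the listed start at 135689145.
Alas1 upstream: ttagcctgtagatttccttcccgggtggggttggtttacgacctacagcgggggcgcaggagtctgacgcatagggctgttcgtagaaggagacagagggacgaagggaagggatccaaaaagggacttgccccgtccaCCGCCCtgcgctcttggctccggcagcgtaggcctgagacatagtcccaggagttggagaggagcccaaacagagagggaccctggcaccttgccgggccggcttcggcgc
Por upstream: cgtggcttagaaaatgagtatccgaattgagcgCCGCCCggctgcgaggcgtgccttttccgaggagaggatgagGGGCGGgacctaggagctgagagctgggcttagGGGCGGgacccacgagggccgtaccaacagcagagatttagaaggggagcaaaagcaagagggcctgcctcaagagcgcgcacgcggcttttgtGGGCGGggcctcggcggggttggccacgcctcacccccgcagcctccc

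The windows searched ran from 250 bases before each listed start to 50 after it, 300 bases in all, on both strands. The upstream Alas1 window held 1 GC box and the Por window 4, and 35.7% of the 32851 RefSeq promoter windows hold at least 1. The palindromic NRF1 site, searched by its full consensus, lay at 1 place shared by both Alas1 windows, which overlap, and not in the Por window. This place begins 29 bases after the upstream start, outside the stretch shown, and 0.971% of all windows hold the site. The clock's E-box CACGTG (7.15% of windows), its D-box TTATGTAA (0.938%) and the core of the antioxidant response element, TGACNNNGC (12.4%), were not among the letters of these windows. None of these matches overlapped another, and each describes letters only.

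Alas1 counts were several-fold lower in cadmium livers at all 5 of its peaks. Numbered from the 5′ end, the leading peak, meaning the peak with the highest mean level over the 6 samples, was peak 2 on chromosome 9 (106246716 to 106247023). Its levels were 178, 192 and 166 CPM in control replicates 1, 2 and 3 and 11.3, 34.9 and 17.6 CPM in cadmium replicates 1, 2 and 3. No cadmium sample reached the control range, and cadmium replicate 2 was the highest of the exposed samples. The means were 179 ± 13.0 and 21.3 ± 12.2 CPM (SD, n = 3), a log2 change of -3.07 (SE 0.34), or 8.40-fold lower.

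The cadmium samples kept this order at the other Alas1 peaks, with replicate 2 highest and replicate 1 lowest. Peak 1, at the gene's 5′ end (106247693 to 106247814), spans the downstream of the 2 listed starts. Its levels were 65.3, 72.0 and 64.2 CPM in control and 4.85, 16.2 and 8.88 CPM in cadmium samples. Its log2 change of -2.75 (SE 0.35) was the smallest in size of the 5. Peaks 3 (106243233 to 106243334) and 4 (106241730 to 106241853), in the body of the gene, had log2 changes of -3.29 (SE 0.34) and -3.28 (SE 0.31). Peak 5 (106234007 to 106234254), nearest the 3′ end, stood at 149, 179 and 139 CPM in control and 8.44, 32.3 and 14.6 CPM in cadmium samples, a log2 change of -3.07 (SE 0.40). The ranges of 1 SE around the 5 changes overlapped. All 5 come from the same samples, so this overlap cannot show whether the peaks changed alike. The groups did not overlap at any of the 5 peaks.

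**Figure D1:**
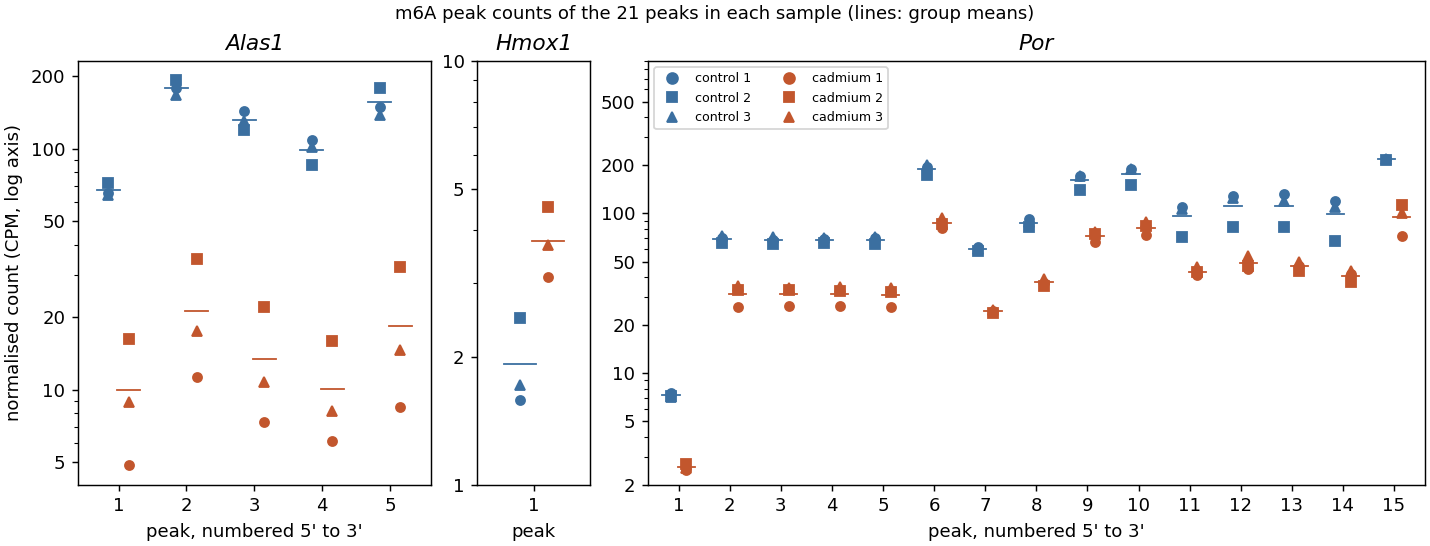
Normalised count (CPM, log axis) of each of the 21 peaks in the 3 control and 3 cadmium samples, with short lines at the group means. At every Alas1 and Por peak the cadmium samples lie below the control samples, at the Hmox1 peak they lie above, and cadmium replicate 2 is the highest cadmium sample at all 5 Alas1 peaks.

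Relative to their group mean, the cadmium samples differed among themselves more at Alas1 than the control samples did, although the SD in CPM was larger in control samples at 4 of the 5 peaks. At peak 2 cadmium replicates 1, 2 and 3 stood at 6.32%, 19.5% and 9.84% of the control mean. Cadmium replicate 2 was 2.24 to 2.81 times the mean of the other 2 cadmium samples across the 5 peaks, whereas each control sample was 0.820 to 1.25 times the mean of the other control samples. Without cadmium replicate 2 the log2 change of peak 2 was -3.63 and that of peak 5 was -3.75, and without cadmium replicate 1 they were -2.76 and -2.72. The share of the gene's peak counts that fell in peak 1 was 10.6% ± 0.489 in control and 13.6% ± 1.07 in cadmium samples (SD, n = 3). That of peak 2 was 28.3% ± 1.13 and 29.3% ± 0.486. Peak 1 thus held a somewhat larger part of the smaller cadmium total, and the share of peak 2 differed by less than the spread of the control samples.

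Por counts were 2.165 to 2.83 times lower in cadmium livers at its 15 peaks, which lie along a gene of 65287 bp on chromosome 5. The leading peak, peak 15 (135734818 to 135735298), lies at the 3′ end. It stood at 219, 215 and 220 CPM in control replicates 1, 2 and 3 and at 72.1, 112 and 100.1 CPM in cadmium replicates 1, 2 and 3. The control samples were close to equal, and all cadmium samples lay far below them. The means were 218 ± 2.68 and 94.9 ± 20.7 CPM (SD, n = 3), a log2 change of -1.20 (SE 0.17).

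Across the 15 Por peaks the log2 changes ran from -1.50 to -1.11, with a median of -1.16, and their SE ran from 0.14 to 0.21. The lowest value belonged to peak 1 (135674615 to 135674748), which lies upstream of the start at 135689145 and inside the longer RefSeq gene. It had few counts, 315 to 366 in control and 104 to 149 in cadmium samples. Its levels of 7.46, 7.23 and 7.14 CPM in control and 2.46, 2.70 and 2.55 CPM in cadmium samples were nonetheless tight within each group, with a log2 change of -1.50 (SE 0.16). Peak 2 (135689223 to 135689353), just downstream of that start, went from 69.2 ± 3.67 to 31.4 ± 4.78 CPM, a log2 change of -1.14 (SE 0.16). Peak 6 (135715873 to 135716064) is the strongest outside the 3′ end, at 195, 174 and 202 CPM in control and 80.6, 86.5 and 93.1 CPM in cadmium samples, with a log2 change of -1.13 (SE 0.14).

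Peaks 2 to 5 of Por had nearly equal counts. They spread from 135689223 to 135710676, with gaps of 3336, 535 and 17084 bp, yet their counts in any 1 sample differed by at most 3.43% from lowest to highest. In cadmium replicate 1, for example, all 4 held between 1101 and 1118 counts, and in control replicate 1 between 3372 and 3430. Whether the same fragments were counted in all 4 peaks was not tested, so the 15 Por peaks may not be 15 independent values.

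**Figure D2:**
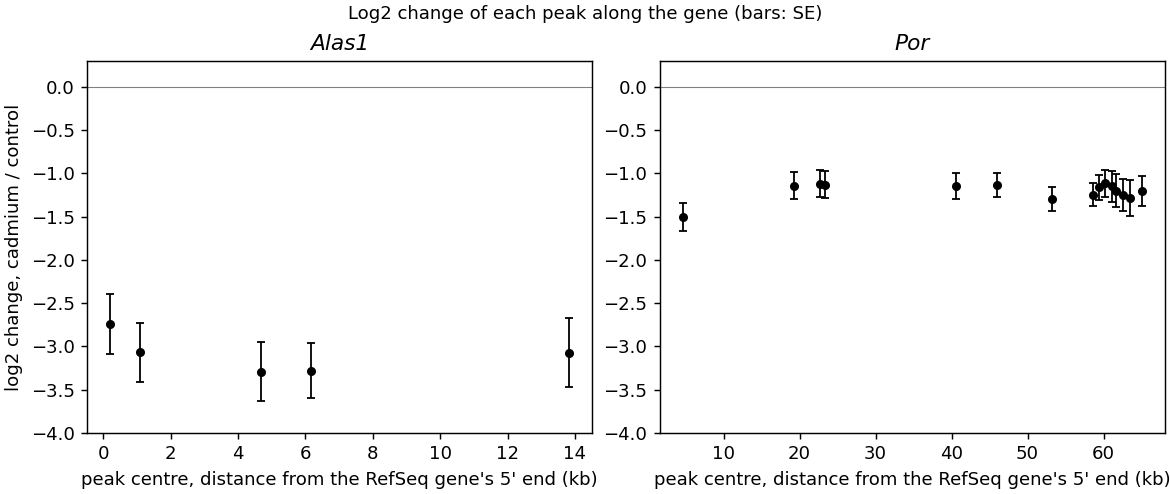
Log2 change (cadmium over control, bars are SE) of each peak of Alas1 and Por against the distance of the peak's centre from the RefSeq gene's 5′ end in kb. Alas1 peaks lie between -3.29 and -2.75 and Por peaks between -1.50 and -1.11, with no peak of either gene near 0.

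Within the control group, replicate 2 departed from the others over a stretch on the 3′ side of Por but not at its last peak. At peaks 11 to 14 (135731011 to 135733692) control replicate 2 stood at 0.587 to 0.658 times the mean of the other control samples, compared with 0.979 times at peak 15. Its ratio was already 0.817 at peak 9 and 0.788 at peak 10, against 0.877 to 0.991 at peaks 1 to 8. At peak 14 (135733452 to 135733692) the control samples held 120, 67.2 and 109 CPM and the cadmium samples 41.6, 37.1 and 43.4 CPM. Cadmium replicate 2, of the same batch, was 0.872 to 0.987 times the mean of the other cadmium samples at peaks 11 to 14. It was 0.933 to 1.10 times that mean at peaks 1 to 10 and 1.31 times at peak 15. Without control replicate 2 the log2 changes of these 4 peaks ran from -1.50 to -1.33, against -1.28 to -1.15 with it. At peak 15 cadmium replicate 1 was the lowest of its group, at 0.678 times the mean of the other cadmium samples. It was also low at peaks 2 to 5, at 0.764 to 0.784 times that mean.

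**Figure D3:**
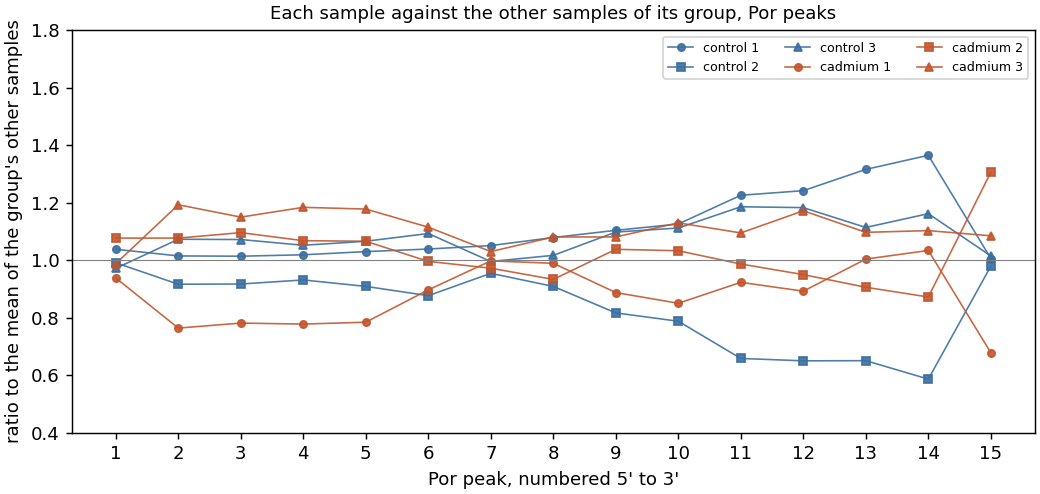
Ratio of each sample's CPM to the mean of the other samples of its group at the 15 Por peaks, numbered 5′ to 3′. Control replicate 2 falls to 0.587 at peak 14 and returns to 0.979 at peak 15, while cadmium replicate 1 is lowest, at 0.678, at peak 15.

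Hmox1 moved the other way from a low level. Its 1 peak on chromosome 8 (75100296 to 75100425), near the higher end of the gene's coordinates (75093618 to 75100593), held 78, 124 and 76 counts in control replicates 1, 2 and 3 and 131, 250 and 169 counts in cadmium replicates 1, 2 and 3. The normalised levels were 1.59, 2.47 and 1.72 CPM in control and 3.10, 4.52 and 3.68 CPM in cadmium samples. The groups did not overlap, though the highest control and the lowest cadmium sample were close. The log2 change was 0.97 (SE 0.24), and replicate 2 was the highest sample in both groups. It ranged from 0.82 without cadmium replicate 2 to 1.19 without control replicate 2.

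At the same threshold all 21 peaks passed, 20 lower and 1 higher, beside the 2.72% and 3.55% of all peaks given above. The groups did not overlap at any of the 21, as at 12.5% of all tested peaks with cadmium below control and 14.4% with cadmium above. Since the genes were picked for this contrast, nothing is read from these counts. The Hmox1 peak did not pass when cadmium replicate 2, cadmium replicate 3, control replicate 1 or control replicate 3 was left out, and the other 20 passed in all 6 leave-outs. In the authors' deposited table all 5 Alas1 and 15 Por peaks carry the call Down. Hmox1 has a log2 change of 0.96 there and no call, and the smallest change that the authors' deposited table calls is 1.0 in size on the log2 scale. Calls in the authors' deposited table reach an adjusted p of 0.232, so they follow another threshold than the 0.05 used here.

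The rest of the haem pathway was compared through a list of genes, each represented by its leading peak. Of the 13050 genes tested in this way, 6.79% were called, 4.39% higher and 2.40% lower in cadmium samples, and their median log2 change was 0.015. The genes in these lists were not picked as members, but the lists were chosen with earlier results of these data known. Their p-values, from the edgeR quasi-likelihood test with Benjamini-Hochberg adjustment over all peaks, do not allow for that choice. Leaving out cadmium replicate 3 cut the calls over all pathway lists from 26 to 9. An unadjusted p below 0.05 was found for 3 of 16 mitochondrial support genes, 3 of 9 transport genes and 2 of 8 electron donors. It was also found for 23 of 56 P450 genes and 4 of 9 other partners and haemoproteins. The share of all genes below it was not computed, so nothing is read from these, earlier or later counts at that threshold.

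Of the 8 other enzymes of haem synthesis none was called in either direction, and 1 had an unadjusted p below 0.05. DESeq2 called none of them either. Alad, which condenses the ALAS product to porphobilinogen, averaged 73.0 ± 8.72 CPM without and 63.7 ± 8.52 CPM with cadmium, at a log2 change of -0.20 (SE 0.16, adjusted p = 0.519). Cpox, the coproporphyrinogen oxidase, had a log2 change of -0.46 (SE 0.17, adjusted p = 0.142), and its counts summed over both of its peaks passed (-0.51, adjusted p = 0.0405). Urod, which removes carboxyl groups from uroporphyrinogen, was at -0.10 (SE 0.16, adjusted p = 0.771). The 8 log2 changes ran from -0.46 to 0.24, with a median of -0.10. Alas2, the erythroid counterpart of Alas1, was chosen after its values were seen: it averaged 3.38 ± 0.144 CPM without and 3.99 ± 0.105 CPM with cadmium, at a log2 change of 0.24 (SE 0.17, adjusted p = 0.448), in a peak shared with Apex2.

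Among 16 genes that support haem synthesis in mitochondria, 1 was higher, 1 was lower and 14 were not called. Clpx, a chaperone subunit of the protease that acts on ALAS1, rose from 17.9 ± 1.00 to 37.5 ± 8.75 CPM, a log2 change of 1.06 (SE 0.19, adjusted p = 0.0104). Slc25a37, the mitochondrial iron importer mitoferrin 1, fell from 64.1 ± 21.8 to 31.1 ± 3.81 CPM, a log2 change of -1.05 (SE 0.23, adjusted p = 0.0247). Clpx did not pass without cadmium replicate 3 (adjusted p = 0.0637). Slc25a37 did not pass when cadmium replicate 2, cadmium replicate 3 or control replicate 3 was left out (adjusted p = 0.0558 to 0.121). The haem-binding membrane proteins Pgrmc1 and Pgrmc2 stood at log2 changes of 0.00 (adjusted p = 0.997) and 0.24 (adjusted p = 0.414), and the carrier Slc25a39 at -0.17 (adjusted p = 0.509).

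None of the 7 other genes of haem breakdown and bilirubin handling was called by edgeR or DESeq2, and 1 had an unadjusted p below 0.05. Hmox2, the constitutive haem oxygenase, stood at a log2 change of 0.21 (SE 0.14, adjusted p = 0.402), in a peak shared with Cdip1. The biliverdin reductases Blvra and Blvrb stood at -0.02 (adjusted p = 0.965) and -0.17 (adjusted p = 0.612). These 3 genes were chosen after their values were seen, as the enzymes that act beside or after HMOX1. Of the genes with the highest levels, the bilirubin conjugating Ugt1a1 stood at -0.19 (adjusted p = 0.442) in a peak shared with 9 other symbols. The bilirubin carriers Slco1b2 and Abcc2 stood at -0.18 (adjusted p = 0.530) and -0.34 (adjusted p = 0.198).

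Of 9 genes of haem transport and scavenging 1 was called. Cd163, the macrophage receptor that takes up haemoglobin bound to haptoglobin, stood at 3.44, 3.49 and 3.44 CPM in control replicates 1, 2 and 3 and at 0.449, 0.380 and 0.392 CPM in cadmium replicates 1, 2 and 3. It fell by a wide margin from this low level (log2 change -3.08, SE 0.25, adjusted p = 0.000832), and it passed in all 6 leave-outs. Summed over its 7 peaks, Cd163 had a smaller log2 change of -2.57 (adjusted p = 0.000738). The plasma carriers of haemoglobin and haem, Hp and Hpx, stood at log2 changes of -0.04 (adjusted p = 0.914) and 0.08 (adjusted p = 0.802), and the hemopexin receptor Lrp1 at 0.13 (adjusted p = 0.680).

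Because macrophages are among the cells known to express Hmox1, the macrophage markers are set beside it. Of 14 markers 11 had a tested peak, and Adgre1, Timd4 and Cd68 had none. The summed level of the 11 was 161 to 237 CPM in control and 288 to 367 CPM in cadmium samples, without overlap. Lyz2, C1qa, C1qb, C1qc, Cd5l and Csf1r rose, Cd163 fell, and 4 were not called. Lyz2, the myeloid lysozyme, had the largest rise (log2 change 1.58, SE 0.17, adjusted p = 0.00112). Clec4f, a Kupffer cell lectin, stood at 0.14 (SE 0.17, adjusted p = 0.688) and Vsig4, a complement receptor of these cells, at -0.81 (SE 0.31, adjusted p = 0.155). Csf1r and C1qa each failed when cadmium replicate 2, cadmium replicate 3 or control replicate 3 was left out. Summed over its 3 peaks, Csf1r had a log2 change of 0.41 and did not pass (adjusted p = 0.0807). The calls dropped from 7 to 2 without cadmium replicate 3 and to 3 without control replicate 3. The part of these cells in the Hmox1 difference was not tested. Of 12 erythroid markers 4 had a tested peak and none was called, and none of 10 neutrophil markers had one. The summed erythroid level was 96.6 to 168 CPM in control samples and 282.6, 91.6 and 101.5 CPM in cadmium replicates 1, 2 and 3. Cadmium replicate 1, the lowest sample at all 5 Alas1 peaks, was thus the highest here, at Hba-a1 and Hba-a2 (129.2 and 142.5 CPM), near-identical genes that may share reads, and the bearing of this on Alas1 was not tested.

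Among 17 genes that regulate Alas1, Hmox1 or Por, 2 were higher, 2 lower and 13 not called, with a median log2 change of -0.30, and 9 of the 17 had an unadjusted p below 0.05. With the replicate block, with DESeq2 and with counts summed per gene 6 were called. The additions were the nuclear receptor genes Nr1i2 (PXR) and Nr1i3 (CAR), at -0.52 (adjusted p = 0.0654) and -0.68 (adjusted p = 0.0525) in their leading peaks. Nr1d1, which encodes the haem-binding clock repressor REV-ERBalpha, stood at 22.8, 13.9 and 30.0 CPM in control and 77.8, 62.2 and 59.7 CPM in cadmium samples. It rose by a log2 change of 1.58 (SE 0.25, adjusted p = 0.00636) and passed in all 6 leave-outs. The small MAF proteins, which pair with NRF2 or BACH1 on antioxidant response elements, moved in opposite directions: Mafk rose (0.95, SE 0.16, adjusted p = 0.00867) and Maff fell (-0.93, SE 0.20, adjusted p = 0.0217). Foxo1, which acts in fasting, fell as well (-0.66, SE 0.15, adjusted p = 0.0310). Without cadmium replicate 3 Mafk was at an adjusted p of 0.0606. Maff failed without cadmium replicate 1 or 3 (adjusted p = 0.0647 to 0.0796), and Foxo1 passed only without control replicate 1 (otherwise adjusted p = 0.0531 to 0.134).

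Nfe2l2, Bach1 and Hnf4a were not called. Nfe2l2, which encodes NRF2, averaged 122 ± 23.0 CPM without and 114 ± 6.11 CPM with cadmium, at a log2 change of -0.09 (SE 0.16, adjusted p = 0.805). Bach1, the haem-sensing repressor of Hmox1, stood at -0.33 (SE 0.18, adjusted p = 0.316) and Hnf4a at -0.35 (SE 0.14, adjusted p = 0.153).

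Of 8 measured electron donors and relatives of POR 1 was called. Mtrr, a flavoprotein relative of POR that reactivates methionine synthase, fell from 3.70 ± 0.389 to 2.07 ± 0.179 CPM, a log2 change of -0.84 (SE 0.20, adjusted p = 0.0318). It failed in all 6 leave-outs (adjusted p = 0.0511 to 0.154). Cytochrome b5 and its reductase, the other electron route to microsomal P450 enzymes, were not called: Cyb5r3 stood at 0.37 (adjusted p = 0.178), Cyb5a at -0.17 (adjusted p = 0.529) and Cyb5b at 0.00 (adjusted p = 0.995). Of 9 other POR partners and haemoproteins Cycs, cytochrome c, fell (-0.66, SE 0.15, adjusted p = 0.0296). It did not pass when replicate 2 or 3 of either group was left out (adjusted p = 0.0616 to 0.144). Catalase (Cat) stood at -0.11 (adjusted p = 0.712), Suox at 0.05 (adjusted p = 0.916) and the haem enzyme Tdo2 at -0.44 (adjusted p = 0.108).

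The microsomal P450 enzymes, which receive electrons from POR, were mixed. Of 71 listed genes 56 had a tested peak, 7 were lower, 2 higher and 47 not called, with a median log2 change of -0.16. Cyp2a5, a xenobiotic and coumarin hydroxylase, stood at 444, 497 and 457 CPM in control and 191, 251 and 212 CPM in cadmium samples (log2 change -1.10, SE 0.15, adjusted p = 0.00284). Cyp39a1, an oxysterol hydroxylase, fell too (log2 change -1.01, SE 0.15, adjusted p = 0.00537). Both passed in all 6 leave-outs.

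The other P450 genes with the largest changes varied more between samples. Cyp7a1, whose enzyme sets the rate of the classic bile acid route, fell from 257 ± 121 to 61.5 ± 23.0 CPM, a log2 change of -2.06 (SE 0.37, adjusted p = 0.0111). Cyp8b1, which shapes the mix of bile acids, rose from 211 ± 112 to 669 ± 48.6 CPM, a log2 change of 1.66 (SE 0.34, adjusted p = 0.0197). The fatty acid hydroxylases Cyp4a14 and Cyp4a10 fell (-1.71, adjusted p = 0.00956, and -1.48, adjusted p = 0.0414). The groups overlapped at Cyp4a10, where control replicate 1 (42.3 CPM) lay below cadmium replicate 2 (45.5 CPM), and not at Cyp4a14. Reads may be shared between related P450 genes of this list. Without cadmium replicate 3 Cyp7a1, Cyp8b1 and Cyp4a14 were at adjusted p = 0.0545, 0.0643 and 0.0542. Cyp4a10 failed in 4 of 6 leave-outs. Over the P450, electron donor and haemoprotein genes 11 were called, 18 with the replicate as a block, 7 without control replicate 2 and 2 without cadmium replicate 3.

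**Figure D4:**
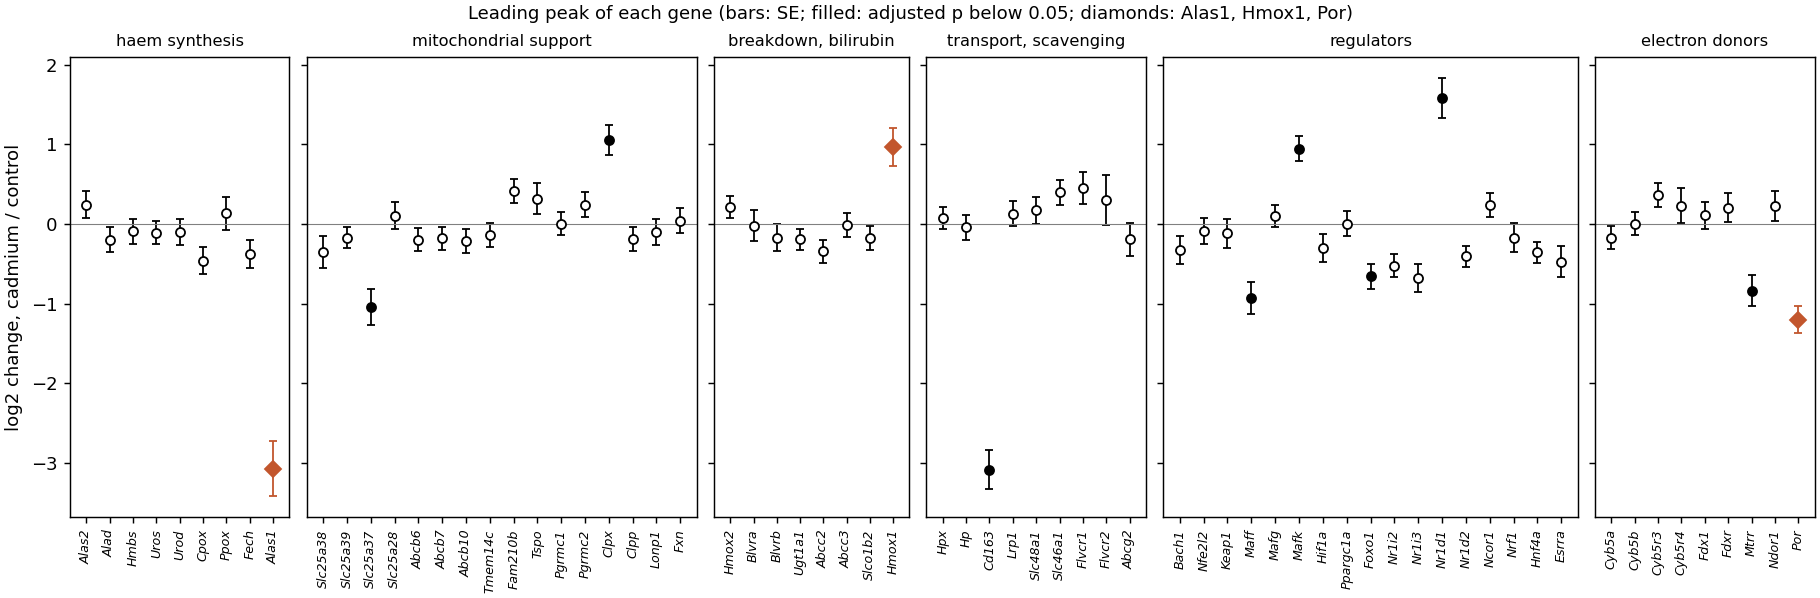
Log2 change (cadmium over control, bars are SE) of the leading peak of each measured gene in 6 lists by role, filled where called, with Alas1, Hmox1 and Por as diamonds. The other haem synthesis genes lie between -0.46 and 0.24, and Cd163, at -3.08, lies near Alas1, at -3.07.

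Clock genes are set beside Alas1 because its rhythm in liver is well known, while the sources used here do not give the hour of sampling. Of 16 measured clock genes 7 were lower, 2 higher and 7 not called, with a median log2 change of -0.78. Ciart (-2.86, adjusted p = 0.000967), Per2 (-2.08, adjusted p = 0.00129), Per3 (-2.01, adjusted p = 0.000832) and Per1 (-1.72, adjusted p = 0.00760) fell, and Nr1d1 rose as given above. These 5 passed in all 6 leave-outs, and the peaks of Ciart and Per3 carry other symbols too. Their part in the Alas1 and Por differences was not tested.

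The genes whose pattern over the 6 samples lay nearest to each member were found among the 8387 leading peaks whose level reached the median of tested peaks. The measure is the root mean square difference of the centred log2 levels, and it describes likeness only. Nearest to Alas1 were Usp2 (0.316, in a peak shared with Gm49380), a peak shared by Gm45819, Wee1 and 1600010M07Rik (0.356) and Coq10b (0.397). Usp2 stood at 86.1, 76.6 and 64.0 CPM in control and 4.82, 16.9 and 4.16 CPM in cadmium samples, so that its cadmium replicate 2 was also the highest of its group. Nearest to Por were Cyp2a5 (0.127), Lrrc28 (0.128) and Tef (0.135). Nearest to Hmox1 were Ifit3b (0.0734), Syk (0.0834) and Slfn5 (0.0908), each with replicate 2 the highest in both groups.

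**Figure D5:**
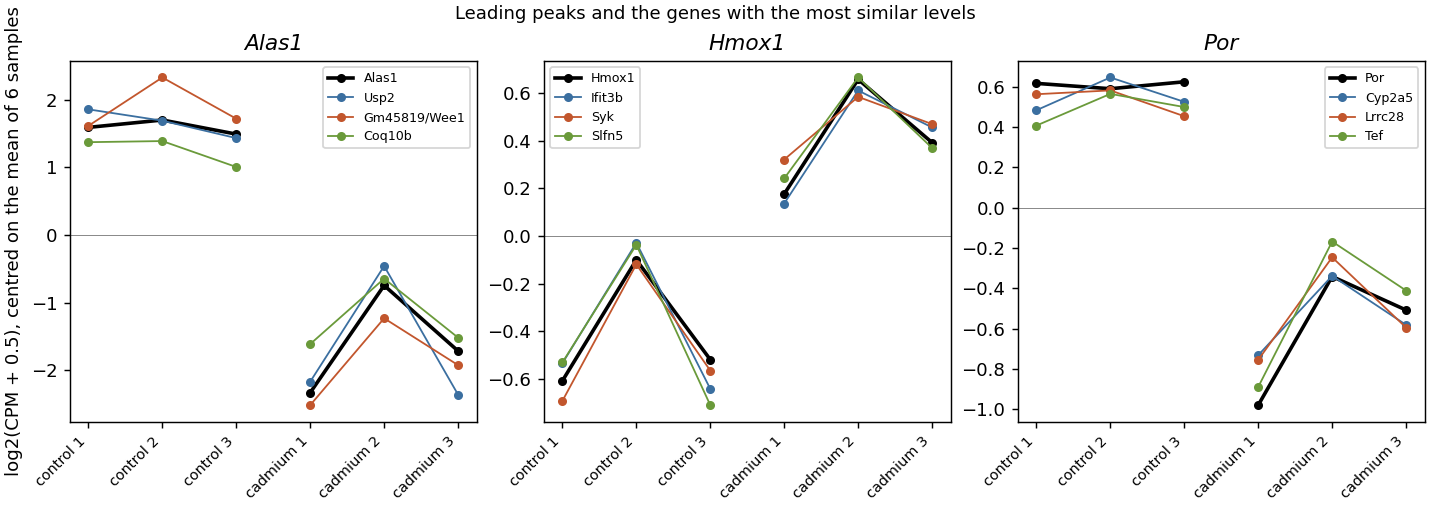
Centred log2 level of the leading peak of Alas1, Hmox1 and Por and of the 3 genes nearest to each over the 3 control and 3 cadmium samples. The nearest genes lie at 0.316 to 0.397 from Alas1, 0.127 to 0.135 from Por and 0.0734 to 0.0908 from Hmox1. These distances are not scaled by the size of each member's change, so they cannot be compared between members.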

How the data were processed

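The m6A immunoprecipitated (IP) RNA of 3 control and 3 cadmium livers was analysed out of 12 labelled libraries, 6 IP and 6 input. The deposited table gives raw counts per peak, a log2 fold change and p-values by the authors. The count columns carry numbers that the IP and input library of a sample share. Since each row is an m6A peak, they were taken to hold IP counts, which is an assumption. Per the submitters' processing notes, the tools were MACS2 2.1.1, STAR 2.7.1a, DESeq2 4.1.0 (as written there), cutadapt 1.1.8 and SAMtools 1.3.1, and the build was mm10. Their settings, the use of strand and whether peaks were called on pooled samples are not given in the sources used here. Coordinates are as deposited, and whether starts count from 0 is not given either.

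Counts were tested in edgeR 4.0.16 (R 4.3.3) with TMM scaling, filterByExpr (minimum count 10, minimum total 15) and its quasi-likelihood F test between 3 exposed and 3 control samples. Calls have a Benjamini-Hochberg adjusted p below 0.05 over all 37088 tested peaks. Adjusted p-values come from edgeR where no tool is named. Dividing the size of the log2 change by the root of F gave the SE, which therefore depends on p. The biological coefficient of variation was 19.4%. The procedure was tested on simulated data with the same dispersion at every peak and no pairing of samples, which the real data need not follow. A gene is represented by its leading peak, and likeness used log2(CPM + 0.5). Members and lists were chosen with earlier results of these data known. Named genes were those called, at most 6 by size of change for P450 and clock genes, and elsewhere up to 3 more with the highest level. A clock gene that this choice names is not reported here. The labels name replicates 1, 2 and 3 as batches, so equal numbers pair samples. Deviations from the group means correlated across peaks at 0.146, 0.214 and 0.174 for equal numbers and at -0.173 to 0.016 for others. Alternatives were other scaling, DESeq2 1.42.0, other filters, the replicate block, sums per gene, libraries without the 2 largest peaks and leaving out each sample.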

Additional observations from a re-analysis of the deposited data

How the results depend on the processing

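The log2 changes of the leading Alas1, Por and Hmox1 peaks kept their direction under every alternative run, at -3.63 to -2.76, -1.34 to -1.03 and 0.82 to 1.19 when 1 sample was left out. The Hmox1 peak lies below the median level, so that filter gave it no value. Calls among the 21 peaks numbered 20 or 21 in the leave-outs, 20 with library size alone and 19 at or above the median level. Over all peaks 2325 calls became 3710 with DESeq2, 1061 at or above the median level, 3144 with the replicate block, and 543 (without cadmium replicate 3) to 1976 in the leave-outs, with 1078 without control replicate 3. The pathway lists had 26 calls and 9 to 27 in the leave-outs. The synthesis, support, breakdown and transport lists had 3 and 1 to 3, and the regulators 4 and 1 to 5, with 2 without cadmium replicate 1. The P450, electron donor and haemoprotein lists had 11, against 18 with DESeq2, 18 with the replicate block, 6 at or above the median level and 2 to 11 in the leave-outs, with 7 without control replicate 2. The macrophage markers had 7 and 2 to 7, with 3 without control replicate 3. The causes of these shifts were not tested. With library size alone 66.3% of calls were higher against 56.6%. The replicate block moved no other of these counts by over 1.5 times. Of 32 listed genes called, 32 were still called with the block and with DESeq2, 19 without control replicate 3 and 10 without cadmium replicate 3. With counts summed per gene Cpox, Nr1i2, Nr1i3, Cyp2c69, Tdo2 and Bhlhe40 were added to the called genes and Csf1r was lost. The Hmox1 peak rests on 76 to 250 counts per sample.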
